A study of Bos taurus with 12 samples.

Results

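Blastocysts fertilized and cultured in vitro (VITRO) were compared with blastocysts from oocytes that were matured in vitro and then placed by intrafollicular transfer (IFOT-M). These groups hold 3 arrays each, 6 of the 12 arrays in the series, chosen by the titles of the arrays alone. In both groups immature oocytes were taken from slaughterhouse ovaries and matured in vitro, so the groups part only after maturation. VITRO oocytes were fertilized in a dish and the zygotes were grown in SOFaa, a synthetic oviduct fluid with amino acids and fatty acid free albumin, under CO2 in air. IFOT-M oocytes were injected into the preovulatory follicle of synchronized Simmental heifers, which were inseminated, so that ovulation, fertilization and development took place in the follicle, oviduct and uterus until flushing. The other 6 arrays are used as context. They hold IFOT-IM blastocysts, whose oocytes entered a dominant follicle while still immature, and VIVO blastocysts from superovulated and inseminated heifers. Semen of 1 bull was used throughout, and only expanded blastocysts of the best quality grade were pooled, about 15 to an array, at day 7.

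Limits of the groups as models were stated or visible in the labels. A heifer's own embryo could enter an IFOT-M pool, although the most advanced embryo of each flush was ascribed to the recipient when yields were counted. The sample label of IFOT-M names the dominant follicle where the design text names the preovulatory one. The RNA integrity numbers in the study's sample sheet were lower in VITRO than in IFOT-M, with overlapping ranges, and how these differences act on the values was examined only by adding the integrity number to the fit. The sex of the embryos was not given. The 3 pools of a group were called biological replicates. P-values rest on the spread between pools of a group, estimated for each probe set over all 4 groups together. They thus do not reflect the spread of the VITRO and IFOT-M pools alone.

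A blastocyst is the first embryonic stage with a cavity. Its outer trophectoderm pumps fluid inward and later forms the placenta, and its inner cell mass parts into epiblast, the source of the embryo, and hypoblast, the source of the yolk sac. Bovine embryos switch from stored oocyte RNA to their own transcription in the oviduct, several cleavages after fertilization. Embryos in a dish pass this switch in the culture medium. Among the pathways known to respond to what a medium supplies is cholesterol synthesis, which cells raise through the SREBP transcription factors when their membranes are short of sterol and lower when lipoproteins bring it.

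Each value is a log2 level of a probe set, a group of probes read as 1 transcript on the Affymetrix Bovine Gene 1.0 ST array, and a difference of 1 is a change of 2-fold. Levels were compared between arrays for the same probe set and never between genes. The arrays differed in scale. Median levels ranged over 1.95 to 1.97 in VITRO and 1.84 to 1.86 in IFOT-M, and SDs over 1.50 to 1.54 in VITRO and 1.65 to 1.68 in IFOT-M. Quantile normalization, which the study's methods state, is made to bring array distributions together, and how it was run to give these values is not known. VITRO arrays correlated with each other at a mean r of 0.955, IFOT-M arrays at 0.980, and VITRO with IFOT-M arrays at 0.950, all across the 24415 probe sets tested. IFOT-IM replicate 1 had an SD of 1.55, near those of VITRO, and enters the IFOT-IM means given below. Markers of the labelled stage were measured in both groups. KRT18, a keratin of trophectoderm, averaged 8.22 in VITRO and 8.89 in IFOT-M, and SOX2, a factor of the inner cell mass, averaged 5.32 in VITRO and 6.10 in IFOT-M. CDX2, which defines trophectoderm in the mouse, averaged 1.97 in VITRO and 1.99 in IFOT-M. That is close to the array medians above, and signal over background was not analysed here.

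The scale difference sorted the results by level. Probe sets were ordered by mean level over the 6 arrays and cut into 10 bins of equal size, and the median difference (VITRO minus IFOT-M) was 0.13 in the lowest bin and -0.42 in the highest. It stayed between 0.12 and 0.15 through the lower 5 bins, was 0.02 in bin 7 and -0.30 in bin 9. In each VITRO array the median distance from the IFOT-M mean was positive in the lowest bin (0.13, 0.11 and 0.09) and negative in the highest (-0.48, -0.36 and -0.35). For this reason each gene and list below is also set against the running median of the 500 probe sets of nearest mean level, called the same-level median. A list's value relative to the same level is the median, over its genes, of the difference minus the gene's own same-level median. A second view is cyclic loess, a normalization that removes any trend of the difference with level before the fit. After it the median was -0.02 in the lowest bin and 0.00 in the highest. The median over all probe sets was 0.06. The trend moved with the group, so a difference between the embryos and one between the arrays cannot be told apart.

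**Figure D1:**
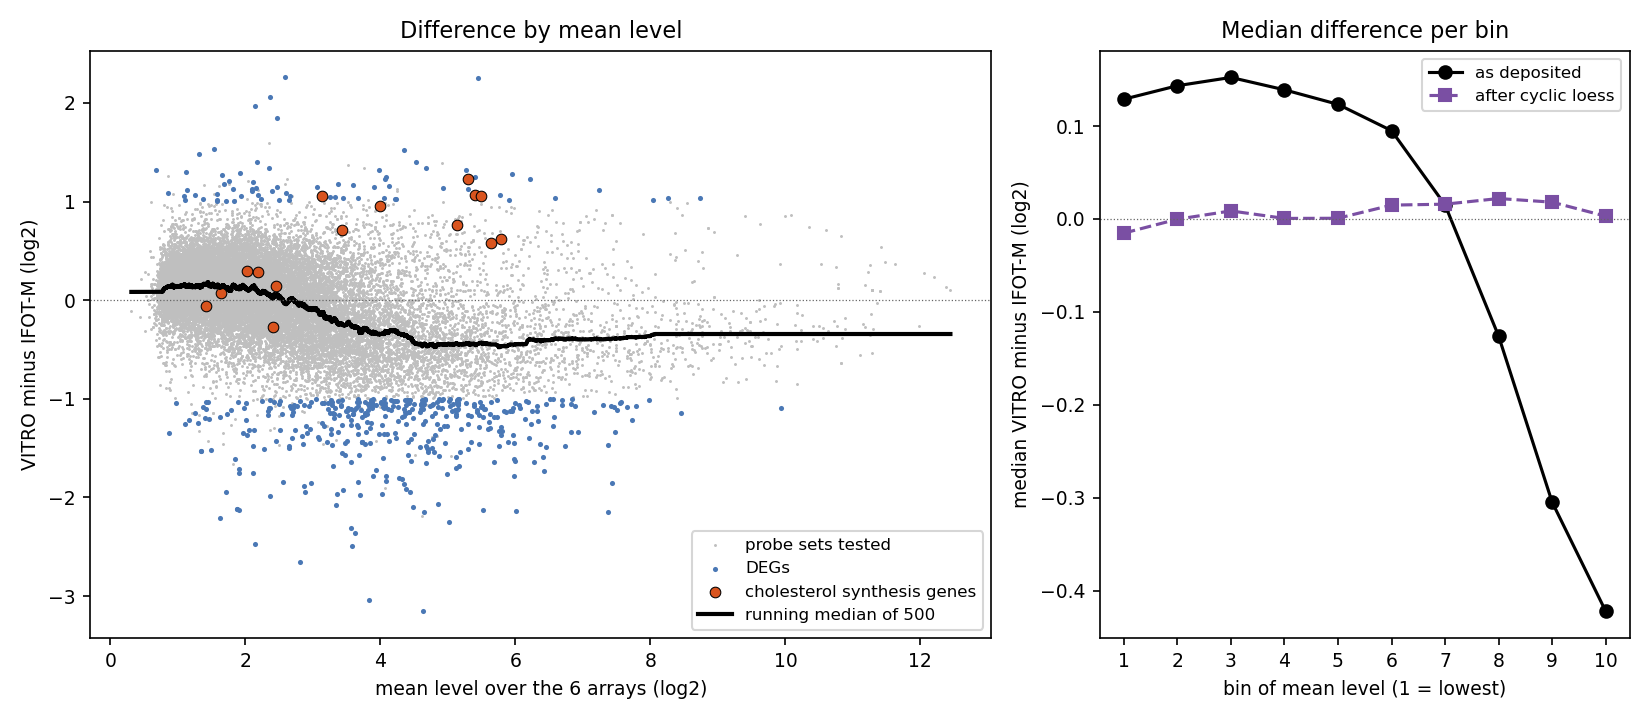
The left panel plots VITRO minus IFOT-M (log2) against the mean level over the 6 arrays (log2) for each probe set tested, with DEGs in blue, the 15 cholesterol synthesis genes in orange and the running median of 500 probe sets as a line; the right panel gives the median difference in each of 10 bins of mean level as deposited and after cyclic loess. The line lies above 0 at low levels and near -0.4 at high levels, and 9 orange points lie far above it.

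In total, 468 probe sets were called differentially expressed genes (DEGs) by the thresholds of the study's methods, which ask for more than 2-fold, a raw p under 0.05 and a false discovery rate (FDR) under 0.1. The FDR is the p of limma adjusted after Benjamini and Hochberg over all probe sets tested. They were 1.92% of the probe sets. Of these, 76 were higher in VITRO (0.311% of probe sets) and 392 were lower (1.61%). Only 22 of the higher and 189 of the lower DEGs carried exactly 1 gene symbol. The split depended on scale, since after cyclic loess 219 DEGs were higher and 144 lower, and after quantile normalization 206 were higher and 197 lower. With each array centred on its median, which moved the median of all differences to -0.05, 38 were higher and 578 lower. Without VITRO replicate 1, 2 or 3 the higher DEGs numbered 127, 116 or 115. Of the 76 higher DEGs 63, and of the 392 lower DEGs 325, stayed past an FDR of 0.1 after cyclic loess. At any fold change, 8.38% of probe sets were higher and 12.9% lower at an FDR below 0.1. These shares are the background for the counts of genes that follow, but calls also sorted by level. In the highest bin 175 of 2442 probe sets were higher and 1219 lower, and in bin 9 134 of 2441 were higher and 881 lower. In the lowest bin 168 of 2441 were higher and 20 lower. A list of high level is thus expected to hold more falls than 12.9%. All 3 VITRO arrays lay on one side of all 3 IFOT-M arrays for 32.9% of probe sets.

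The context groups lay on the IFOT-M side for most DEGs. For 345 of the 392 lower DEGs the VIVO mean was nearer to IFOT-M than to VITRO, and the IFOT-IM mean was nearer to IFOT-M for 336. Among the 76 higher DEGs the VIVO mean was nearer to IFOT-M for 57 and the IFOT-IM mean for 67. The 22 higher DEGs with a symbol were divided, with VIVO nearer to VITRO for 10 of them. These counts are a description with no test, since the DEGs were chosen on 2 of the groups. Array scale also went with them, since SDs were 1.73 to 1.75 in VIVO and 1.55 to 1.64 in IFOT-IM, above those of VITRO. The part of array scale in this nearness was not tested.

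The genes of this paragraph and the next were picked among DEGs with 1 symbol whose arrays did not overlap between the groups. Their lack of overlap thus follows from the choice. The largest fall was in H3-3B, one of the genes for the replacement histone H3.3, which is laid into chromatin outside replication. Its level was 6.15, 6.40 and 6.37 in VITRO, against 8.53, 8.39 and 8.43 in IFOT-M, a fall of 2.15 (SE 0.16, FDR 7e-05), or 4.43-fold lower. Histone H3.3 has a near-identical second gene, so its probes may be shared. AQP11, an aquaporin of intracellular membranes, had 3.0, 3.28 and 3.21 in VITRO, against 5.0, 4.91 and 5.07 in IFOT-M, a fall of 1.83 (SE 0.20, FDR 0.0005). MRPS36, a mitochondrial protein known as a part of the 2-oxoglutarate dehydrogenase complex, had 2.53, 3.43 and 3.62 in VITRO, against 5.04, 4.82 and 5.05 in IFOT-M. It fell by 1.78 (SE 0.34, FDR 0.006) and its VITRO arrays were spread over more than 1 log2 unit. HPRT1, the X-linked purine salvage enzyme, had 3.52, 4.70 and 4.11 in VITRO, against 6.11, 5.59 and 5.92 in IFOT-M, a difference of -1.76 (SE 0.39, FDR 0.012). Other large falls had a small spread within each group. GNG2, a G protein subunit, fell by 1.60 (SE 0.17, FDR 0.0005), GABARAPL1, a protein of autophagosome membranes, by 1.58 (SE 0.15, FDR 0.00033), GPI, the second enzyme of glycolysis, by 1.54 (SE 0.15, FDR 0.00033) and CSRP2, a LIM domain protein, by 1.48 (SE 0.18, FDR 0.0008). BMS1, a ribosome assembly factor, and DCK, the kinase that salvages deoxycytidine, differed by -1.47 (FDR 0.00094) and -1.47 (FDR 0.0008), and a second DCK probe set by -0.46 (FDR 0.14). The remaining 2 of the 12 largest falls were LOC780876 (-1.99) and the microRNA gene MIR2475 (-1.84). Against the same-level median the lowest genes also included SLC25A4, the ADP/ATP carrier of mitochondria (-1.48 relative to it), GINM1 (-1.45), LRRCC1, a centrosomal protein (-1.34), and ZNF280BY (-1.36), which is described with the sex-linked genes.

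The largest rise among DEGs with 1 symbol was in LOC768028, an X-linked gene without a name, with 2.68, 2.92 and 3.77 in VITRO, against 0.78, 1.48 and 1.20 in IFOT-M, a difference of 1.97 (SE 0.27, FDR 0.0014). SSLP1 had 4.56, 5.69 and 5.06 in VITRO, against 2.99, 4.06 and 3.71 in IFOT-M, a difference of 1.52 (SE 0.38, FDR 0.021). S100A2, a calcium-binding protein of epithelia, had 5.55, 5.44 and 5.49 in VITRO, against 4.38, 4.32 and 4.37 in IFOT-M, a difference of 1.13 (SE 0.25, FDR 0.013). The S100A2 arrays were tight within both groups and lay more than 1 log2 unit apart, and its VIVO mean of 6.69 was higher than either. BOLA, a bovine MHC class I gene whose probes may be shared among its relatives, differed by 1.17 (SE 0.27, FDR 0.014). FOXE1, a forkhead transcription factor, differed by 1.11 (SE 0.22, FDR 0.007). MIR2330, a microRNA gene, had 5.77, 5.92 and 6.09 in VITRO, against 3.85, 4.33 and 5.66 in IFOT-M, so that IFOT-M replicate 3 nearly reached the VITRO arrays. Its difference was 1.32 (SE 0.35, FDR 0.028), and it was not called without IFOT-M replicate 1 (FDR 0.111). SLC6A9, the glycine transporter GLYT1, which early embryos use to take up glycine as an osmolyte, had 3.34, 3.23 and 2.98 in VITRO, against 1.71, 2.35 and 2.32 in IFOT-M, a difference of 1.06 (SE 0.22, FDR 0.0099). The other 5 of the 12 largest rises were 3 enzymes of cholesterol synthesis, SQLE, MSMO1 and DHCR7, and the olfactory receptor genes OR4X16 and OR6E1D (1.14 and 1.07). Relative to the same-level median, LOC100299076 (1.32) and the olfactory receptor OR4F58B (1.25) joined the highest 10. LOC100299076 was not called without VITRO replicate 3 or IFOT-M replicate 1 or 2 (FDR 0.126 to 0.139), nor OR4F58B without VITRO replicate 1 or 3 or IFOT-M replicate 1 (FDR 0.114 to 0.18).

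Genes of cholesterol synthesis were higher in VITRO. Of the 15 genes tested, 9 rose and 0 fell, against a background of 8.38% higher, and the list had a median of 0.62 (1.03 relative to the same level). The same 9 of 15 passed after cyclic loess (background 5.61%), where the list median was 1.04, and the count was 9 with the RNA integrity number in the fit. SQLE, squalene epoxidase, which adds the first oxygen on the way to the sterol ring, had 6.0, 5.97 and 5.77 in VITRO, against 4.95, 4.49 and 4.63 in IFOT-M. Every VITRO array was above every IFOT-M array, and the difference was 1.23 (SE 0.18, FDR 0.0019), or 2.34-fold. FDFT1, squalene synthase, the step before, had 5.49, 5.58 and 5.45 in VITRO, against 4.93, 4.62 and 4.68 in IFOT-M, a difference of 0.76 (SE 0.15, FDR 0.0077). IDI1, which makes an isoprene unit for all later steps, had 3.36, 4.13 and 3.85 in VITRO, against 3.01, 3.16 and 3.04 in IFOT-M, a difference of 0.71 (SE 0.19, FDR 0.025), with VITRO replicate 1 the nearest to IFOT-M.

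Of 8 later enzymes tested, which trim the sterol ring, 6 rose, and TM7SF2 and HSD17B7 did not pass. CYP51A1, the lanosterol demethylase, had 3.73, 3.93 and 3.33 in VITRO, against 2.69, 2.43 and 2.69 in IFOT-M, a difference of 1.06 (SE 0.18, FDR 0.003). MSMO1, the sterol C4 methyl oxidase, had 5.80, 6.03 and 5.98 in VITRO, against 4.96, 4.97 and 4.68 in IFOT-M, a difference of 1.07 (SE 0.21, FDR 0.0067). NSDHL, which acts with MSMO1 and is X-linked, had 4.36, 4.38 and 4.67 in VITRO, against 3.64, 3.66 and 3.24 in IFOT-M, a difference of 0.95 (SE 0.20, FDR 0.0093). In all 3 genes each VITRO array was above each IFOT-M array. DHCR7, which makes cholesterol from 7-dehydrocholesterol, had 6.08, 5.71 and 6.29 in VITRO, against 5.10, 4.94 and 4.85 in IFOT-M, a difference of 1.06 (SE 0.19, FDR 0.0042). EBP, the sterol isomerase, and SC5D, the sterol desaturase before DHCR7, differed by 0.62 (SE 0.14, FDR 0.014) and 0.58 (SE 0.12, FDR 0.0083). Above the same-level median the 9 genes stood by 0.95 to 1.67.

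The other 6 genes did not pass. MVK, the mevalonate kinase, averaged 2.27 in VITRO and 2.54 in IFOT-M, a difference of -0.27 (FDR 0.41), and the enzymes of the next steps, PMVK and MVD, differed by -0.06 (FDR 0.84) and 0.15 (FDR 0.45). LSS, the lanosterol synthase between SQLE and CYP51A1, averaged 1.67 in VITRO and 1.60 in IFOT-M, a difference of 0.08 (FDR 0.69). TM7SF2 and HSD17B7 differed by 0.29 (FDR 0.19) and 0.29 (FDR 0.26).

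In the context groups these enzymes did not follow the pattern of most DEGs. For all 9 genes that rose, the VIVO mean was nearer to VITRO and the IFOT-IM mean was nearer to IFOT-M. SQLE had 3.72, 4.35 and 4.40 in IFOT-IM and 6.11, 6.10 and 6.30 in VIVO, and MSMO1 had 3.52, 4.43 and 4.44 in IFOT-IM and 6.69, 6.67 and 6.81 in VIVO. All VIVO arrays thus lay above all VITRO arrays in both genes, and all IFOT-IM arrays below all IFOT-M arrays. In the same fit, 7 of the 9 were higher in VIVO than in IFOT-M at an FDR below 0.1, by a median of 1.23 over the 9. Between VITRO and VIVO, 0 of the 9 were higher and 3 were lower in VITRO (CYP51A1, MSMO1 and SC5D). All 9 were higher in VITRO than in IFOT-IM, by 0.91 to 1.81. These comparisons share arrays with the main one and were added after the values were seen.

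**Figure D2:**
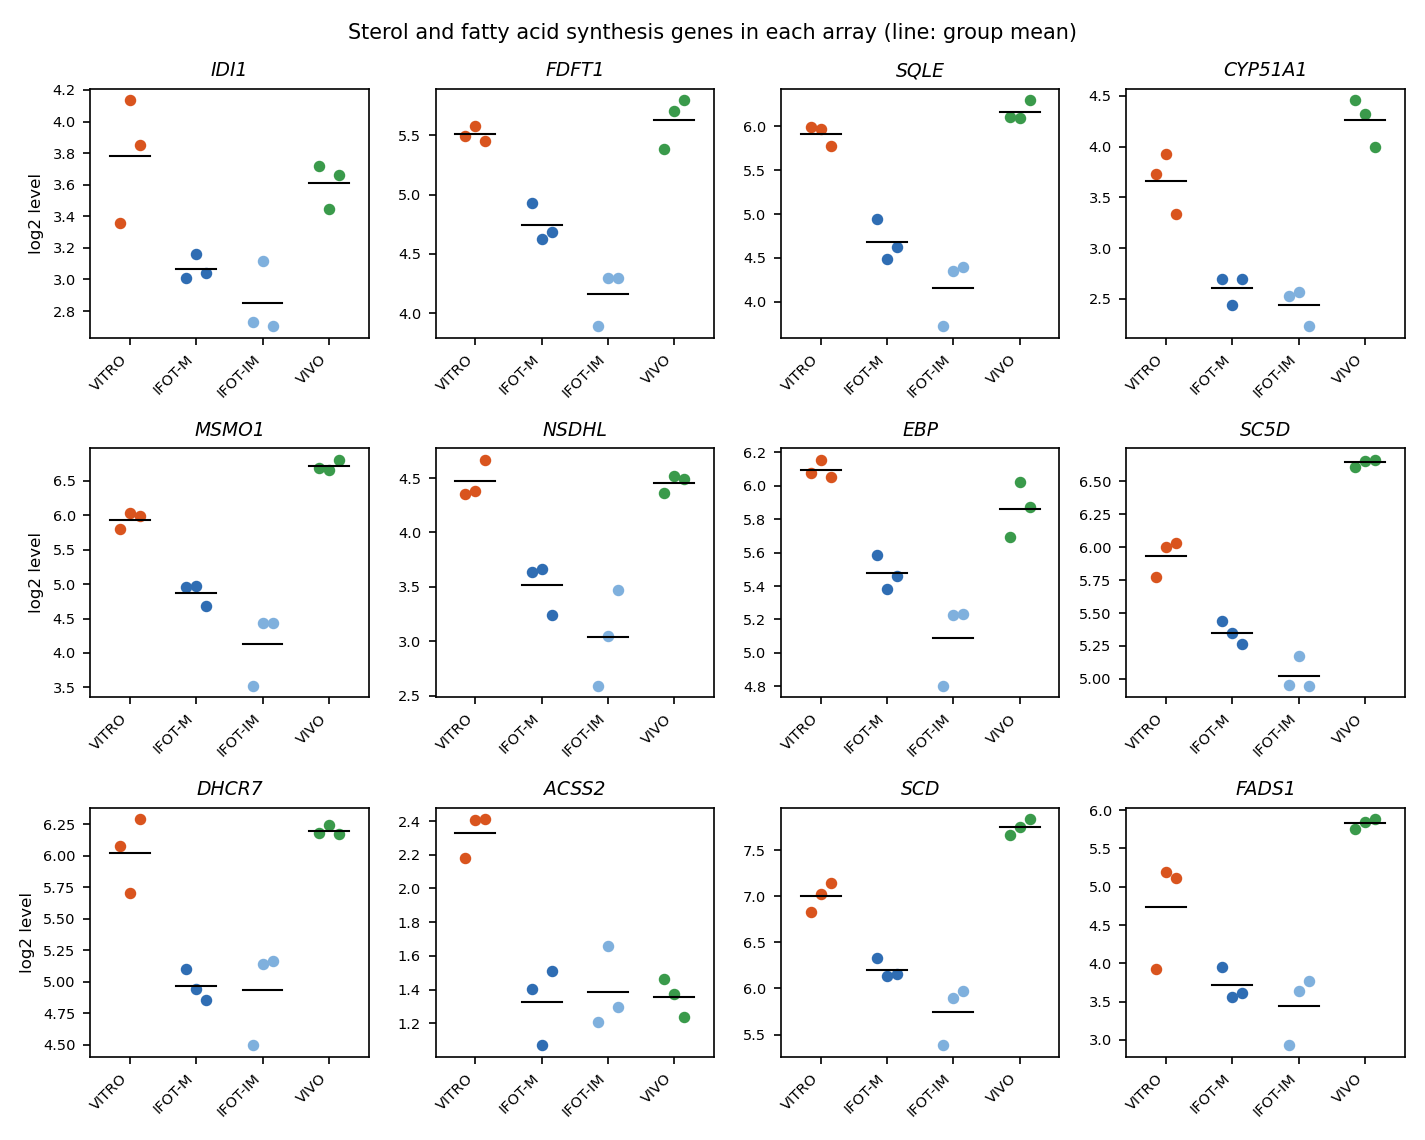
Log2 level of 12 sterol and fatty acid synthesis genes in each array (points) with the group mean (line), for VITRO, IFOT-M, IFOT-IM and VIVO from left to right; each panel has its own axis. In the 9 cholesterol synthesis panels all VITRO points lie above all IFOT-M points and the VIVO mean lies nearer to VITRO, whereas ACSS2 is high in VITRO alone.

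Among genes that sense, take up, store and export sterol, the share of rises was near the background. Of 14 tested, 1 rose and 4 fell, with a median of -0.25 (-0.17 relative to the same level). Over all probe sets 8.38% were higher and 12.9% lower. In bin 7, where the list's median level of 2.72 lay, 193 of 2441 were higher and 228 lower. SREBF2, which encodes the transcription factor SREBP2, averaged 3.36 in VITRO and 3.48 in IFOT-M, a difference of -0.12 (FDR 0.68). INSIG1, a sterol-induced brake on SREBP processing and itself an SREBP target, differed by 0.22 (FDR 0.36). INSIG2, its relative, had 3.41, 3.62 and 4.03 in VITRO, against 4.63, 4.46 and 4.41 in IFOT-M, a difference of -0.81 (SE 0.22, FDR 0.029) that was not called without IFOT-M replicate 1 (FDR 0.101). SOAT1, which esterifies cholesterol for storage, fell by 0.64 (SE 0.16, FDR 0.02), and ABCA1, which exports it, by 0.59 (SE 0.16, FDR 0.029). ABCG1, another exporter and the gene that rose, differed by 0.38 (SE 0.13, FDR 0.076). It was not called without VITRO replicate 1 or 2 or IFOT-M replicate 1, 2 or 3. After cyclic loess 0 of the 14 passed in either direction, and INSIG2, SOAT1 and ABCA1 had -0.43 (FDR 0.19), -0.20 (FDR 0.34) and -0.37 (FDR 0.19).

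Fatty acid synthesis and desaturation was divided. Of 20 genes 5 rose and 3 fell, with a median of 0.08 (0.24 relative to the same level), and 7 rose and 2 fell after cyclic loess. The rises numbered 2 without IFOT-M replicate 3 and 3 without VITRO replicate 1 or IFOT-M replicate 2. ACSS2, which turns acetate into acetyl-CoA, had 2.18, 2.41 and 2.41 in VITRO, against 1.40, 1.07 and 1.51 in IFOT-M, a difference of 1.0 (SE 0.16, FDR 0.0022), and neither context group was raised (1.21, 1.66 and 1.30 in IFOT-IM and 1.46, 1.38 and 1.24 in VIVO). SCD, the desaturase that makes oleic acid, had 6.83, 7.02 and 7.15 in VITRO, against 6.33, 6.13 and 6.15 in IFOT-M, a difference of 0.80 (SE 0.16, FDR 0.0073). A second SCD probe set gave the same direction but not the call (0.34, SE 0.18, FDR 0.23). FADS1, a desaturase of polyunsaturated fatty acids, had 3.92, 5.19 and 5.11 in VITRO, against 3.95, 3.56 and 3.62 in IFOT-M. Its VITRO replicate 1 lay inside the IFOT-M range while the other 2 VITRO arrays lay well above it, and the difference of 1.03 (SE 0.30, FDR 0.039) was not called without VITRO replicate 2 or 3 or IFOT-M replicate 2 or 3 (FDR 0.101 to 0.12). FASN, the fatty acid synthase, differed by -0.34 (FDR 0.14). ACACA, the carboxylase that commits carbon to fat, fell by 0.36 (SE 0.12, FDR 0.075).

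For genes of lipid storage and oxidation the share of falls was near the 12.9% of all probe sets. Of 24 tested 0 rose and 3 fell, with a median of -0.01 (-0.01 relative to the same level), and 2 rose and 2 fell after cyclic loess. In bin 6, where the list's median level of 2.14 lay, 248 of 2442 probe sets were higher and 122 lower. FABP5, an intracellular fatty acid carrier, had 1.95, 1.72 and 1.75 in VITRO, against 3.01, 2.84 and 2.84 in IFOT-M, a difference of -1.09 (SE 0.18, FDR 0.0027), and its groups lay far apart. ACAA2, a thiolase of beta-oxidation, fell by 0.66 (SE 0.17, FDR 0.024), and PLIN2, which coats lipid droplets, by 0.34 (SE 0.11, FDR 0.057). PLIN2 (-0.23, FDR 0.22) was not called after cyclic loess. Of 19 genes of serine and asparagine synthesis and other targets of ATF4, the transcription factor of amino acid shortage, 3 rose and 0 fell, with a median of 0.04 (0.15 relative to the same level), and 6 rose and 0 fell after cyclic loess. CHAC1, which degrades glutathione, had 2.95, 2.57 and 2.93 in VITRO, against 1.77, 1.88 and 1.85 in IFOT-M, a difference of 0.98 (SE 0.18, FDR 0.0042) without overlap. The serine synthesis genes PSPH and PSAT1 differed by 0.43 (FDR 0.04) and 0.40 (FDR 0.08). PSPH was not called without VITRO replicate 1 or IFOT-M replicate 2 or 3 (FDR 0.102 to 0.119), and PSAT1 was not called without VITRO replicate 1, 2 or 3 or IFOT-M replicate 1, 2 or 3 (FDR 0.104 to 0.188). Of 21 amino acid transporters, 1 rose, SLC6A9 above, and 3 fell, among them SLC7A5, the leucine exchanger (-0.64, SE 0.10, FDR 0.0026), with a median of -0.10 (-0.08 relative to the same level), and 2 rose and 1 fell after cyclic loess.

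Of the genes of pluripotency and epiblast many were lower and NANOG alone rose. Of 23 tested, 1 rose and 11 fell, with a median of -0.53 (-0.33 relative to the same level). Of all probe sets 12.9% were lower, and 881 of 2441 in bin 9, where the list's median level of 3.70 lay. After cyclic loess 1 rose and 4 fell (background 5.4% lower). POU5F1 (OCT4), the core pluripotency factor, had 5.04, 4.57 and 4.58 in VITRO, against 5.70, 5.77 and 5.71 in IFOT-M, a difference of -1.0 (SE 0.17, FDR 0.0036) or 1.99-fold lower. SOX2, its partner, had 5.03, 5.49 and 5.45 in VITRO, against 6.14, 6.07 and 6.08 in IFOT-M, a difference of -0.77 (SE 0.14, FDR 0.0039). The groups did not overlap in either gene, but after cyclic loess the differences were -0.55 (FDR 0.093) and -0.31 (FDR 0.15). NANOG, the third factor of this core and the mark of the formed epiblast, went the other way, with 4.96, 4.26 and 4.32 in VITRO, against 3.88, 3.80 and 3.85 in IFOT-M, a difference of 0.67 (SE 0.18, FDR 0.031). VITRO replicate 1 was the highest NANOG array, the difference was 1.0 (FDR 0.012) after cyclic loess, and the FDR was 0.123 with the RNA integrity number in the fit. In the context groups NANOG had 4.21, 4.65 and 4.21 in IFOT-IM and 3.32, 3.34 and 3.50 in VIVO, so VIVO lay lowest and IFOT-IM within the range of VITRO or just below it. Both probe sets of DPPA4, a chromatin protein of pluripotent cells, fell, by 0.74 (SE 0.13, FDR 0.0043) and 1.44 (SE 0.16, FDR 0.0005). SALL4, a zinc finger factor, fell by 0.79 (SE 0.14, FDR 0.0042) and OTX2, a homeobox factor, by 0.74 (SE 0.18, FDR 0.017). After cyclic loess OTX2 had -0.34 (FDR 0.22) and the DPPA4 probe sets -0.30 (FDR 0.2) and -0.98 (FDR 0.0023).

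The trophectoderm list was divided and lay near its level, with 2 of 20 higher, 5 lower and a median of 0.00 (0.00 relative to the same level), and 2 rose and 2 fell after cyclic loess. TFAP2C, an early trophectoderm factor, had 4.82, 5.25 and 5.29 in VITRO, against 6.12, 6.05 and 6.09 in IFOT-M, a difference of -0.97 (SE 0.16, FDR 0.003). KRT8, the keratin partner of KRT18, had 3.73, 3.75 and 4.10 in VITRO, against 5.07, 4.81 and 4.42 in IFOT-M, a difference of -0.91 (SE 0.19, FDR 0.009). Neither gene overlapped between the groups, and after cyclic loess both kept an FDR below 0.1 (TFAP2C -0.51, FDR 0.025; KRT8 -0.50, FDR 0.094). KRT18 and GATA2 fell by 0.67 (SE 0.14, FDR 0.011) and 0.83 (SE 0.19, FDR 0.014). KRT18 (-0.30, FDR 0.13) and GATA2 (-0.47, FDR 0.13) were not called after cyclic loess. The lineage factors CDX2 and GATA3 did not pass. CDX2 had 1.81, 1.81 and 2.30 in VITRO, against 1.85, 2.29 and 1.82 in IFOT-M, which overlapped fully, and differed by -0.01 (SE 0.21, FDR 0.97), a sign that changed in 4 of the alternative fits, and GATA3 differed by -0.36 (SE 0.15, FDR 0.14) as deposited and by 0.07 after cyclic loess. HAND1, a factor of later trophoblast and extraembryonic mesoderm, had 2.71, 2.20 and 2.03 in VITRO, against 1.64, 1.42 and 1.50 in IFOT-M, a difference of 0.79 (SE 0.16, FDR 0.009).

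Of 25 hypoblast genes 4 rose (2 without VITRO replicate 2 or 3 or IFOT-M replicate 1) and 1 fell, with a median of 0.06 (0.04 relative to the same level), and 4 rose and 0 fell after cyclic loess. NID2, a basement membrane protein, had 2.94, 3.16 and 3.64 in VITRO, against 2.48, 2.58 and 2.29 in IFOT-M, a difference of 0.80 (SE 0.16, FDR 0.0088), and APOA1, an apolipoprotein made by visceral endoderm, had 3.53, 3.73 and 4.04 in VITRO, against 2.61, 3.43 and 2.80 in IFOT-M, a difference of 0.82 (SE 0.21, FDR 0.023). Both were higher in every VITRO array than in any IFOT-M array. GATA6, the factor that starts the lineage, fell by 0.51 (SE 0.12, FDR 0.014), and the difference was -0.12 (FDR 0.56) after cyclic loess. SOX17 and PDGFRA, which follow GATA6, differed by -0.18 (FDR 0.45) and -0.20 (FDR 0.26), and PDGFRA was positive after cyclic loess (0.20) and quantile normalization (0.11). In these pools, fewer cells of a lineage and less RNA per cell cannot be told apart.

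**Figure D3:**
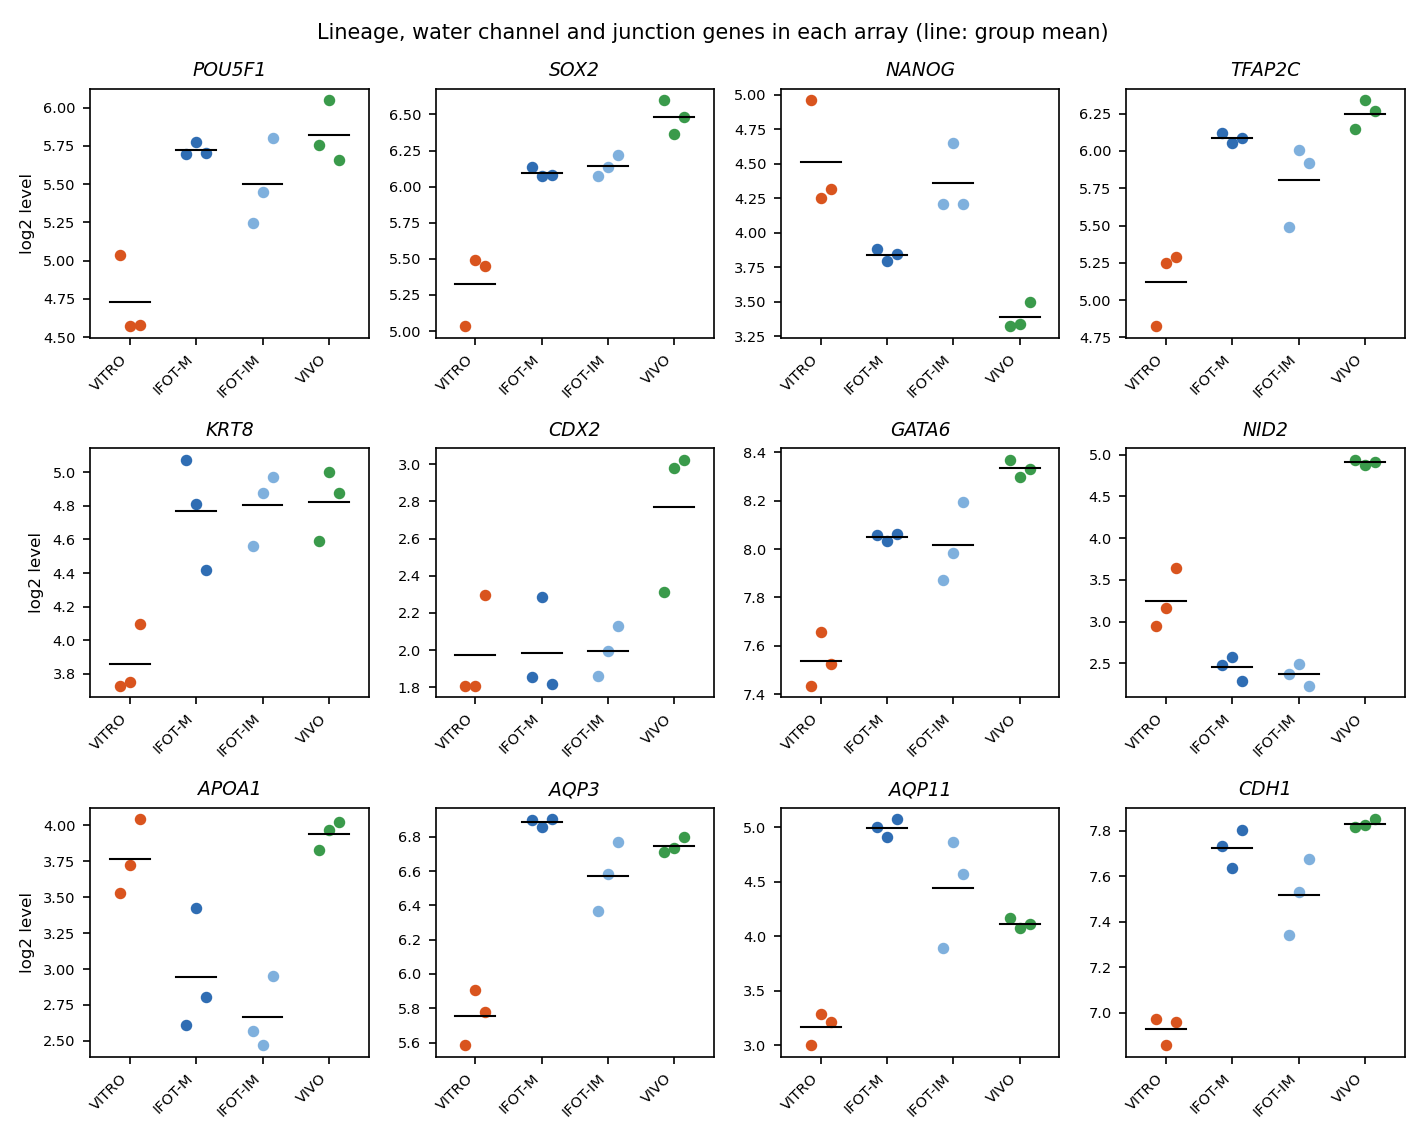
Log2 level of 12 lineage, water channel and junction genes in each array (points) with the group mean (line), for VITRO, IFOT-M, IFOT-IM and VIVO from left to right; each panel has its own axis. POU5F1, SOX2, TFAP2C, KRT8, AQP3, AQP11 and CDH1 lie lower in every VITRO array than in any IFOT-M array, NANOG, NID2 and APOA1 lie higher, and CDX2 overlaps.

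Among genes listed for the filling and sealing of the blastocoel, some fell clearly and others did not pass. The cavity forms when trophectoderm pumps sodium inward, water follows through aquaporins, and tight junctions hold it. Of 33 genes, 2 rose and 11 fell (6 without IFOT-M replicate 1), with a median of -0.21 (-0.10 relative to the same level), and 2 rose and 4 fell after cyclic loess. AQP3, a water and glycerol channel, had 5.58, 5.91 and 5.78 in VITRO, against 6.90, 6.86 and 6.90 in IFOT-M, a difference of -1.13 (SE 0.13, FDR 0.00062), and remained at -0.67 (FDR 0.0029) after cyclic loess. AQP11, given above, remained at -1.47 (FDR 0.00069), and VIVO lay between the groups (3.89, 4.87 and 4.57 in IFOT-IM and 4.16, 4.07 and 4.11 in VIVO). AQP7 differed by 0.52 (FDR 0.092) and was not called without VITRO replicate 1 or 2 or IFOT-M replicate 1, 2 or 3 (FDR 0.131 to 0.215). ATP1B1, a subunit of the sodium pump, differed by -0.07 (FDR 0.81). CDH1, the adherens junction cadherin, had 6.97, 6.86 and 6.96 in VITRO, against 7.73, 7.63 and 7.80 in IFOT-M, a difference of -0.79 (SE 0.12, FDR 0.0018). Among tight junction genes CLDN1 and CLDN6 fell, by 0.95 (SE 0.22, FDR 0.016) and 0.82 (SE 0.17, FDR 0.009), and CLDN3 differed by 0.29 (FDR 0.21). AQP7 (0.43, FDR 0.22) and CLDN6 (-0.36, FDR 0.11) were not called after cyclic loess. OCLN (occludin) differed by -0.04 (FDR 0.87) as deposited and by 0.39 (FDR 0.061) after cyclic loess. Of 31 genes of the actin and contractile cytoskeleton 3 rose and 12 fell, with a median of -0.30 (0.02 relative to the same level), and 4 rose and 1 fell after cyclic loess. The falls were led by ACTN4 and ACTN1, which bundle actin at junctions (-0.91, FDR 0.0063, and -0.86, FDR 0.0027), and the rises by the muscle actins ACTA1 and ACTG2 (0.78, FDR 0.031, and 0.74, FDR 0.022), whose probes may be shared with other actins. ACTN1 (-0.40, FDR 0.11) was not called after cyclic loess.

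Of 43 genes of DNA methylation and histone modification 0 rose and 16 fell, with a median of -0.20 (-0.14 relative to the same level), and after cyclic loess 0 rose and 8 fell. SUZ12, a core subunit of Polycomb repressive complex 2, had 3.19, 4.07 and 3.37 in VITRO, against 4.95, 4.85 and 4.88 in IFOT-M, a difference of -1.35 (SE 0.26, FDR 0.0057). The complex's other core genes EZH2, its methyltransferase, and EED fell by 0.80 (SE 0.17, FDR 0.0098) and 0.68 (SE 0.14, FDR 0.0099). After cyclic loess EZH2 had -0.59 (FDR 0.044) and EED -0.26 (FDR 0.26). DNMT3A, a de novo DNA methyltransferase, had 6.19, 6.29 and 6.42 in VITRO, against 7.38, 7.34 and 7.34 in IFOT-M, a difference of -1.05 (SE 0.15, FDR 0.0014). DNMT3B, its relative, fell by 0.92 (SE 0.14, FDR 0.0018). KDM1A, a histone H3 demethylase, had 4.87, 4.89 and 4.79 in VITRO, against 5.95, 5.89 and 5.91 in IFOT-M, a difference of -1.07 (SE 0.16, FDR 0.0018), and EHMT1, a writer of the repressive H3K9 mark, fell by 1.01 (SE 0.16, FDR 0.0027). The arrays of DNMT3A and KDM1A lay close together inside each group and far apart between groups. TET1, which oxidizes methylcytosine, and the deacetylase HDAC1 fell by 0.68 (SE 0.15, FDR 0.012) and 0.62 (SE 0.12, FDR 0.0071). TET1 (-0.23, FDR 0.24) and HDAC1 (-0.16, FDR 0.36) were not called after cyclic loess. DNMT1, the maintenance methyltransferase, differed by -0.13 (FDR 0.53).

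The cell cycle lists lay below their level. Of 44 genes of G1 to S phase and replication 0 rose and 25 fell, with a median of -0.48 (-0.23 relative to the same level), and 1 rose and 10 fell after cyclic loess. ORC6 and CDC6, which load the replicative helicase, fell by 1.18 (SE 0.17, FDR 0.0015) and 1.0 (SE 0.21, FDR 0.0094). MCM6, a helicase subunit, fell by 0.93 (SE 0.16, FDR 0.0033), POLD1, a replicative polymerase, by 0.98 (SE 0.13, FDR 0.0014) and CCNE2, a cyclin of S phase entry, by 0.81 (SE 0.14, FDR 0.0039). Of 44 genes of G2 phase and mitosis 0 rose and 20 fell, with a median of -0.36 (-0.11 relative to the same level), and 9 fell after cyclic loess. PLK1, a mitotic kinase, had 4.43, 4.51 and 4.72 in VITRO, against 5.64, 5.56 and 5.60 in IFOT-M, a difference of -1.05 (SE 0.12, FDR 0.0005). CCNA2, AURKA and CENPA, a cyclin, a spindle kinase and the centromeric histone, fell by 0.86 (SE 0.13, FDR 0.0018), 0.83 (SE 0.15, FDR 0.0052) and 0.89 (SE 0.19, FDR 0.01). CENPA (-0.44, FDR 0.11) was not called after cyclic loess. The VIVO mean of PLK1, 6.22, was above that of IFOT-M, 5.60.

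Genes of the BCL2 family and targets of p53 moved both ways, with 5 of 33 higher (1 without IFOT-M replicate 2, 2 without VITRO replicate 1 or IFOT-M replicate 1 or 3 and 3 without VITRO replicate 3), 8 lower and a median of 0.07 (-0.06 relative to the same level), and 4 rose and 2 fell after cyclic loess. BAX, which opens the mitochondrial membrane in apoptosis, had 3.01, 3.33 and 3.32 in VITRO, against 4.38, 4.29 and 4.46 in IFOT-M, a difference of -1.16 (SE 0.13, FDR 0.0005), and remained at -0.80 (FDR 0.002) after cyclic loess. TP53INP1, a p53 target, fell by 0.99 (SE 0.17, FDR 0.0034), GADD45A, a growth arrest gene, by 0.76 (SE 0.17, FDR 0.012), MDM2, which degrades p53, by 0.58 (SE 0.15, FDR 0.022) and the survival gene BCL2L1 by 0.81 (SE 0.24, FDR 0.041). BCL2L1 was not called without VITRO replicate 1 or IFOT-M replicate 2 (FDR 0.108 to 0.128). BIK, a killer protein of the family, differed by 0.60 (FDR 0.053) and was not called without VITRO replicate 1 or IFOT-M replicate 1, 2 or 3 (FDR 0.102 to 0.152). GADD45A (-0.36, FDR 0.14), MDM2 (-0.34, FDR 0.18), BCL2L1 (-0.46, FDR 0.23) and BIK (0.46, FDR 0.16) were not called after cyclic loess. CDKN1A, the p53 target that stops the cycle, differed by 0.23 (FDR 0.38). Of 27 cytosolic heat shock genes and cochaperones 0 rose and 16 fell, with a median of -0.45 (-0.16 relative to the same level). The falls numbered 6 without IFOT-M replicate 1 and 8 without VITRO replicate 1 or IFOT-M replicate 3, and 3 after cyclic loess. BAG1, a cochaperone, had 3.84, 3.91 and 3.73 in VITRO, against 5.36, 5.0 and 5.17 in IFOT-M, a difference of -1.35 (SE 0.21, FDR 0.0023), and HSPA8, the constitutive HSP70, fell by 0.65 (SE 0.13, FDR 0.0063). HSPA8 (-0.26, FDR 0.15) was not called after cyclic loess.

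Genes of energy metabolism fell often in VITRO, and in the median the respiratory chain lay at its level and the citrate cycle below it. Of 45 genes of the respiratory chain and ATP synthase 0 rose and 24 fell, with a median of -0.39 (0.00 relative to the same level), and 2 rose and 2 fell once cyclic loess was applied. The falls numbered 8 without IFOT-M replicate 1, 12 without VITRO replicate 1 and 15 without IFOT-M replicate 2 or 3. CYC1, cytochrome c1, fell by 0.77 (SE 0.13, FDR 0.0029). Of 22 genes of the citrate cycle 0 rose and 12 fell, with a median of -0.44 (-0.19 relative to the same level), and 1 rose and 4 fell after cyclic loess. The 4 were IDH3A, MRPS36, SDHB and SUCLA2. SDHB, the iron-sulfur subunit of succinate dehydrogenase, and IDH3A, of isocitrate dehydrogenase, fell by 1.01 (SE 0.12, FDR 0.00082) and 1.01 (SE 0.16, FDR 0.0025). Of 23 genes of mitochondrial import and proteases 0 rose and 12 fell (7 without IFOT-M replicate 1), with a median of -0.45 (-0.06 relative to the same level), and 1 rose and 3 fell after cyclic loess. TIMM13, an import chaperone, fell by 1.12 (SE 0.12, FDR 0.0005).

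Glycolysis genes were called in both directions, at shares near those of their level. Of 22 genes 2 rose and 5 fell, with a median of -0.18 (0.04 relative to the same level), and 3 rose and 1 fell after cyclic loess. In bin 8, where the list's median level of 3.09 lay, 178 of 2442 probe sets were higher and 503 lower. GPI had 3.85, 4.09 and 3.88 in VITRO, against 5.54, 5.37 and 5.52 in IFOT-M, a fall of 2.91-fold that kept -1.11 (FDR 0.00049) after cyclic loess. TPI1, 3 steps later, had 3.57, 3.91 and 3.46 in VITRO, against 3.18, 3.12 and 2.90 in IFOT-M, a difference of 0.58 (SE 0.14, FDR 0.018), and its VITRO arrays were all higher. ALDOA, which acts between them, fell by 0.58 (SE 0.12, FDR 0.0088). ALDOA (-0.13, FDR 0.48) was not called after cyclic loess. SLC2A1, the main glucose transporter, differed by -0.19 (FDR 0.51). Of 19 hypoxia response genes 1 rose and 1 fell, with a median of 0.03 (0.07 relative to the same level), and 1 rose and 0 fell after cyclic loess. VEGFA, a vascular growth factor induced by low oxygen, differed by 0.14 (FDR 0.52) as deposited and by 0.56 (FDR 0.041) after cyclic loess. CA9, a carbonic anhydrase, differed by 0.35 (FDR 0.25).

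Protein synthesis and turnover genes fell in large numbers, and the ribosomal and proteasome lists lay near their level. Of 35 translation initiation factors 0 rose and 21 fell, with a median of -0.54 (-0.16 relative to the same level), and 2 rose and 5 fell after cyclic loess. EIF4G1, the scaffold of the cap complex, fell by 1.11 (SE 0.18, FDR 0.003) and EIF3I by 0.96 (SE 0.16, FDR 0.0031). Of 26 ribosomal protein genes 1 rose and 12 fell (5 without IFOT-M replicate 1 or 2, 6 without VITRO replicate 1 and 7 without IFOT-M replicate 3), with a median of -0.32 (0.04 relative to the same level), and 3 rose and 1 fell after cyclic loess. RPS16, the one that rose, had 7.13, 7.22 and 7.0 in VITRO, against 6.33, 6.66 and 6.59 in IFOT-M, a difference of 0.59 (SE 0.16, FDR 0.026) that was not called without IFOT-M replicate 1 (FDR 0.109). Ribosomal genes have many processed copies that may share probes. Of 15 aminoacyl-tRNA synthetases 0 rose and 2 fell, with a median of -0.13 (0.08 relative to the same level), and 2 rose and 0 fell after cyclic loess. Of 41 proteasome genes 0 rose and 18 fell, with a median of -0.38 (0.00 relative to the same level), and 5 fell after cyclic loess. PSMC5, an ATPase of the proteasome cap, fell by 1.06 (SE 0.17, FDR 0.0023) and PSMD2, a cap subunit, by 0.93 (SE 0.14, FDR 0.0022).

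Ubiquitin enzymes, nucleoporins and splicing factors lay below their level. Of 35 ubiquitin E1 and E2 enzymes 0 rose and 21 fell, with a median of -0.52 (-0.20 relative to the same level), and 8 fell after cyclic loess. UBE2N, which builds K63-linked chains, fell by 1.18 (SE 0.17, FDR 0.0017) and UBA2, the SUMO-activating subunit, by 0.96 (SE 0.15, FDR 0.0023). Of 28 nucleoporins 0 rose and 16 fell, with a median of -0.45 (-0.25 relative to the same level), led by NUP50 (-1.05, SE 0.11, FDR 0.0005). Of 42 splicing factors 0 rose and 28 fell, with a median of -0.46 (-0.10 relative to the same level), and SRSF7, an SR protein, fell by 0.92 (SE 0.13, FDR 0.0015). After cyclic loess 4 nucleoporins and 5 splicing factors fell and 0 of either rose.

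The endoplasmic reticulum list ran against its level. Of 31 genes of folding and stress in that organelle 2 rose and 1 fell, with a median of -0.04 (0.20 relative to the same level). Of these, 27 of 31 lay above their same-level medians, and after cyclic loess 8 rose and 0 fell. HERPUD1, which serves the disposal of misfolded proteins, differed by 0.56 (SE 0.16, FDR 0.032), and MANF, a secreted stress protein, by 0.43 (SE 0.13, FDR 0.053). HERPUD1 was not called without IFOT-M replicate 1 (FDR 0.125), nor MANF without VITRO replicate 2 or IFOT-M replicate 2 or 3 (FDR 0.119 to 0.155). HSPA5 (BiP), the central chaperone of the list, differed by 0.16 (FDR 0.34) as deposited and by 0.62 (FDR 0.0082) after cyclic loess. Of 37 lysosome and autophagy genes 0 rose and 13 fell (8 without IFOT-M replicate 1), with a median of -0.31 (-0.13 relative to the same level), and 0 rose and 6 fell after cyclic loess. CTSD, a lysosomal protease, fell by 1.15 (SE 0.16, FDR 0.0015).

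**Figure D4:**
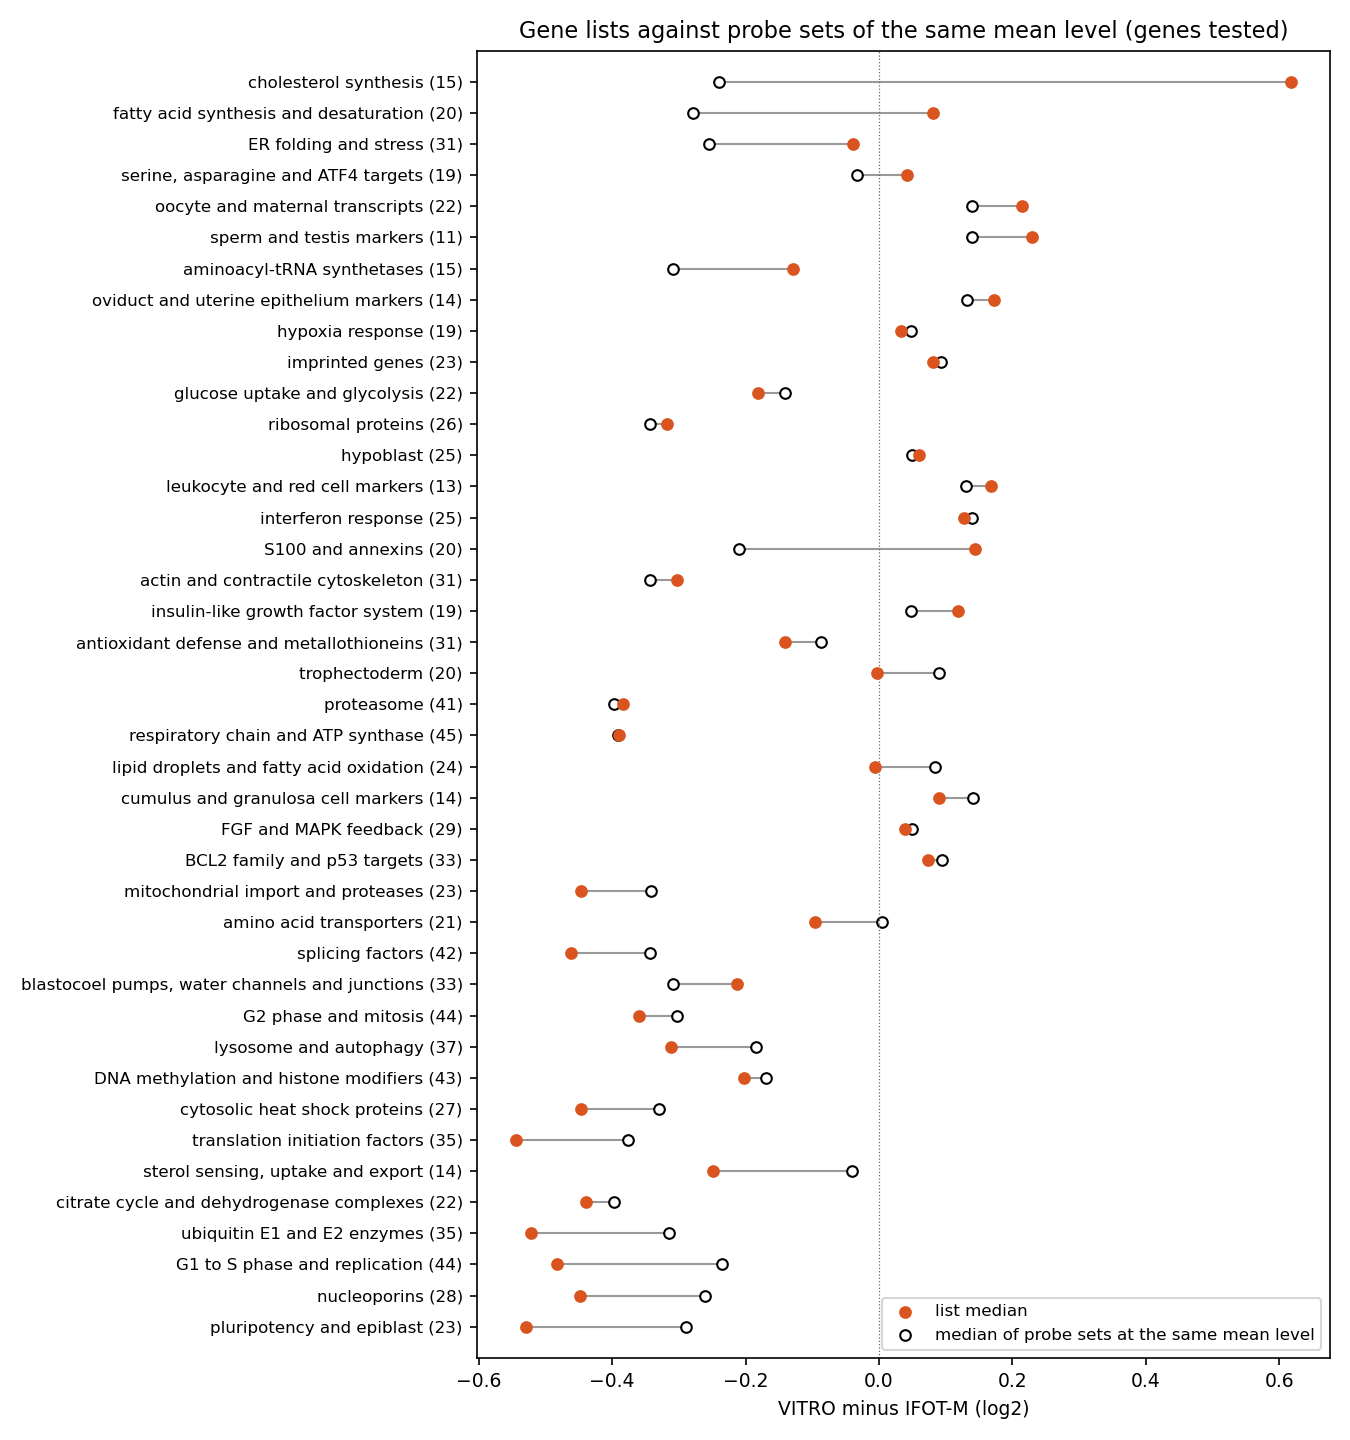
Median difference (VITRO minus IFOT-M, log2) of each of 41 gene lists (filled) and the median of the running median at the mean level of its genes (open), with the number of genes tested in parentheses; lists are ordered by the median distance of their genes from the running median. Cholesterol synthesis stands at 0.62 where its level has -0.24, and pluripotency and epiblast at the other end stands at -0.53 where its level has -0.29.

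Growth factor lists held calls in both directions, beside 8.38% higher and 12.9% lower over all probe sets. Of 19 genes of the insulin-like growth factor system 4 rose (1 without VITRO replicate 3 or IFOT-M replicate 3 and 2 without IFOT-M replicate 1 or 2) and 3 fell, with a median of 0.12 (0.02 relative to the same level), and 3 rose and 0 fell after cyclic loess. IGFBP2, a binding protein, had 4.52, 4.04 and 4.45 in VITRO, against 5.28, 5.13 and 5.44 in IFOT-M, a difference of -0.95 (SE 0.17, FDR 0.0046), and the RNA-binding protein IGF2BP1 fell by 0.71 (SE 0.12, FDR 0.0033). IGFBP2 (-0.51, FDR 0.11) and IGF2BP1 (-0.26, FDR 0.19) were not called after cyclic loess. IGF2, a fetal growth factor, differed by 0.33 (FDR 0.082) and was not called without VITRO replicate 2 or 3 or IFOT-M replicate 1 or 3 (FDR 0.144 to 0.235). Of 23 imprinted genes 4 rose and 0 fell, with a median of 0.08 (0.05 relative to the same level), and 3 rose and 0 fell after cyclic loess. The 4 were PHLDA2, ASCL2, IGF2, which is also counted in the list before, and XIST, which is described with the sex-linked genes. The rises numbered 0 without IFOT-M replicate 1, 1 without IFOT-M replicate 2 or 3 and 2 without VITRO replicate 1, 2 or 3, and 0 with the RNA integrity number in the fit. H19, PEG3 and IGF2R, often studied in cultured embryos, differed by 0.06 (FDR 0.85), 0.25 (FDR 0.32) and -0.28 (FDR 0.25). PHLDA2, an imprinted brake on placental growth, differed by 0.64 (SE 0.18, FDR 0.037) and was not called without VITRO replicate 1 or IFOT-M replicate 1 or 2 (FDR 0.11 to 0.135). Of 29 genes of FGF signalling and MAP kinase feedback 2 rose and 4 fell (2 without VITRO replicate 1 or IFOT-M replicate 1 or 2). As deposited, these counts were near the shares over all probe sets. The list had a median of 0.04 (-0.02 relative to the same level), and 1 rose and 2 fell after cyclic loess. FGFR4, a receptor, fell by 0.76 (SE 0.14, FDR 0.0056) and DUSP4, a phosphatase that switches off MAP kinases, rose by 0.71 (SE 0.17, FDR 0.018).

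Of 25 interferon response genes 3 rose and 1 fell, with a median of 0.13 (0.02 relative to the same level), and 0 rose and 2 fell after cyclic loess. The gene that fell as deposited was B2M, the light chain of MHC class I (-0.84, SE 0.12, FDR 0.0015). Of 31 antioxidant genes 1 rose and 4 fell, with a median of -0.14 (0.00 relative to the same level), and 4 rose and 1 fell after cyclic loess. SOD2, the mitochondrial superoxide dismutase, fell by 0.84 (SE 0.16, FDR 0.0058) and CAT, catalase, by 0.66 (SE 0.17, FDR 0.022). SOD2 (-0.38, FDR 0.12) was not called after cyclic loess. Of 20 S100 and annexin genes 1 rose, S100A2, and 5 fell (3 without IFOT-M replicate 1), with a median of 0.14 (0.02 relative to the same level), and 3 rose and 1 fell after cyclic loess. ANXA3, a membrane-binding annexin, fell by 1.10 (SE 0.14, FDR 0.001). Of 22 oocyte and maternal transcripts 6 rose and 0 fell, with a median of 0.21 (0.11 relative to the same level). The rises numbered 1 without IFOT-M replicate 3, 2 without IFOT-M replicate 1 or 2 and 3 without VITRO replicate 1, and 1 after cyclic loess. That gene was BTG4, which drives the clearance of maternal RNA, with 1.35, 1.88 and 1.09 in VITRO, against 0.63, 0.72 and 0.79 in IFOT-M, a difference of 0.73 (SE 0.19, FDR 0.026). GDF9 and BMP15, growth factors of the oocyte, differed by 0.28 (FDR 0.25) and 0.29 (FDR 0.16).

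Markers of other cell types that could cling to an embryo or be flushed with it were measured by the mean level of each list in every array. For 14 cumulus and granulosa markers this mean was 1.57 to 1.61 in VITRO and 1.49 to 1.53 in IFOT-M, and 1 rose, VCAN, a matrix proteoglycan (0.48, FDR 0.081), and 1 fell, HSD3B1, a steroid enzyme (-0.63, FDR 0.036). The defining gene FSHR, the FSH receptor, averaged 1.07 in VITRO and 1.07 in IFOT-M. For 14 oviduct and uterine markers the mean was 1.87 to 1.96 in VITRO and 1.69 to 1.74 in IFOT-M, and 2 rose, the cilia factor FOXJ1 (0.58, FDR 0.035) and the antibody transporter PIGR (0.63, FDR 0.031), and 0 fell. OVGP1, the oviduct glycoprotein, averaged 1.35 in VITRO and 1.58 in IFOT-M. For 13 leukocyte and red cell markers the mean was 1.97 to 2.27 in VITRO and 1.98 to 2.02 in IFOT-M, and 1 rose, the B cell gene CD79A (0.56, FDR 0.02), while PTPRC, the common leukocyte antigen, averaged 1.34 in VITRO and 1.25 in IFOT-M. For 11 sperm and testis markers the mean was 1.81 to 1.87 in VITRO and 1.60 to 1.67 in IFOT-M, and 1 rose, the nuclear protein TNP2 (0.56, FDR 0.022). The medians of these 4 lists were 0.09 to 0.23, or -0.02 to 0.09 relative to the same level. VCAN was not called without VITRO replicate 2 or 3 or IFOT-M replicate 1 or 2 (FDR 0.103 to 0.243), HSD3B1 without VITRO replicate 3 or IFOT-M replicate 1 (FDR 0.11 to 0.14), FOXJ1 without VITRO replicate 1 or IFOT-M replicate 3 (FDR 0.109 to 0.118), and PIGR without IFOT-M replicate 3 (FDR 0.115). VCAN (0.34, FDR 0.28), HSD3B1 (-0.44, FDR 0.18) and PIGR (0.49, FDR 0.11) were not called after cyclic loess. The part of such cells in the results was not tested.

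Sex-linked probe sets bear on the make-up of pools whose embryo sex was not given. Of 639 probe sets on the X chromosome 56 were higher (8.76%) and 46 lower (7.2%), beside 8.38% and 12.9% of all probe sets. The median level of these X-linked probe sets was 1.76, beside 2.04 over all, and few probe sets of low level were lower. Their median difference was 0.08, or 0.03 relative to the same level. Of 20 on the Y chromosome 0 were higher and 1 was lower. It was ZNF280BY, a zinc finger gene, with 0.25, 0.93 and 1.24 in VITRO, against 2.15, 1.32 and 2.55 in IFOT-M, a difference of -1.20 (SE 0.34, FDR 0.036) that was not called without VITRO replicate 1 or IFOT-M replicate 1 or 3 (FDR 0.113 to 0.128). XIST, the RNA that coats an inactive X chromosome, had 5.19, 5.36 and 5.39 in VITRO, against 4.96, 4.98 and 4.96 in IFOT-M, a difference of 0.35 (SE 0.12, FDR 0.081) that was not called without VITRO replicate 2 or 3 or IFOT-M replicate 1, 2 or 3 (FDR 0.155 to 0.178), nor with the RNA integrity number (FDR 0.165). After cyclic loess XIST differed by 0.78 (FDR 0.0026). The share of male and female embryos and the treatment of the embryos cannot be told apart for these genes.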

How the data were processed

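Each of the 12 arrays holds 1 pool of bovine blastocysts, 3 pools in each of 4 groups taken from the array titles. The authors processed the scans in Expression Console with RMA background correction and quantile normalization and deposited 1 log2 value for each of 26773 probe sets. How the quantile normalization was run is not known, since the spread of the values differs between arrays. That the scale is log2 follows from RMA and the range of the values, and a genome build was not given in the sources used here. The probe sets with the lowest means over the 12 arrays were left out so that 24415 were tested, the number in the study's methods. Of these 17553 carried 1 gene symbol, 641 several and 6221 none in the platform annotation.

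The 12 arrays were fitted in 4 groups with limma 3.58.1 in R 4.3.3 (lmFit and eBayes, 8 residual degrees of freedom), and p-values were adjusted after Benjamini and Hochberg over all probe sets tested. Some members of the lists were not analysed here, and counts are over those tested. A gene in a list was represented by its probe set with the highest mean, and called at an FDR below 0.1 at any fold change. The 41 gene lists were written by hand, and members and lists were chosen with earlier results of these data known. The genes named are the 12 largest rises and falls among DEGs with 1 symbol and separate arrays, the 10 highest and lowest against the same-level median, up to 6 members of each list with the largest called difference, members that define a list, and 9 lineage genes. The number of arrays limits the precision. The scripts were tested on simulated data before use. Alternatives were other normalizations, filters, variance models, thresholds and windows, the RNA integrity number, array weights, the 6 arrays alone, a replicate block and leaving out each array in turn.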

Additional observations from a re-analysis of the deposited data

How the results depend on the processing

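The count of 468 DEGs was 559 with the RNA integrity number, 363 after cyclic loess, 616 after median centring and 390 to 598 with 1 array left out, and 199 when each symbol had 1 probe set (22 higher and 177 lower). The higher DEGs numbered 219 after cyclic loess, 216 after cyclic loess of these 6 arrays alone, 206 after quantile normalization, 38 after median centring and 78 to 127 with 1 array left out. The lower DEGs numbered 144, 156 and 197 under those 3 normalizations and 312 to 483 with 1 array left out. At an FDR below 0.1, 2047 probe sets were higher. That count was 925 after cyclic loess of these 6 arrays, 976 after median centring, 1250 from these 6 arrays alone, 1237 under the stricter filter, 1292 with 1 probe set per symbol and 929 to 1888 with 1 array left out (929, 1152 and 1251 without IFOT-M replicate 1, 2 and 3). The 3160 lower were 952 after cyclic loess of these 6 arrays, 1318 after cyclic loess, 1805 after quantile normalization and 1992 to 2926 with 1 array left out (1992 without IFOT-M replicate 1). The stricter filter and the count per symbol test fewer probe sets, and for the other changes the cause was not tested. The median of the lowest bin, 0.13, was -0.015 after cyclic loess, 0.029 after quantile normalization, 0.028 after median centring and 0.11 to 0.13 with 1 array left out. That of the highest bin, -0.42, was 0.0030 after cyclic loess, -0.083 after quantile normalization, -0.52 after median centring and -0.44 to -0.37 with 1 array left out.

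Of 178 named probe sets followed, 92 kept direction and call under all 18 alternatives, 72 lost the call in at least 1 and 11 uncalled ones changed sign in at least 1. Cyclic loess lost 36 calls, cyclic loess of these 6 arrays 60, the RNA integrity number 19 and quantile normalization 18. The genes that changed sign were not called as deposited, and where the sign had changed only OCLN passed (FDR 0.0611 after cyclic loess). With array weights they were CDX2 0.00063. After cyclic loess of these 6 arrays alone they were GATA3 0.031, PDGFRA 0.17, FASN 0.022, H19 -0.071, LSS -0.057, OCLN 0.36, SLC2A1 0.21 and SREBF2 0.092. After cyclic loess they were GATA3 0.071, PDGFRA 0.20, FASN 0.065, H19 -0.089, LSS -0.061, OCLN 0.39, SLC2A1 0.24 and SREBF2 0.12. After quantile normalization they were PDGFRA 0.11, H19 -0.048, LSS -0.051, OCLN 0.33, SLC2A1 0.17 and SREBF2 0.069. With the RNA integrity number they were ATP1B1 0.038. After median centring they were H19 -0.046 and LSS -0.024. With 1 array left out, the genes that changed sign ranged over CDX2 -0.18 to 0.14, ATP1B1 -0.18 to 0.071, OCLN -0.15 to 0.077, PMVK -0.27 to 0.048 and SREBF2 -0.25 to 0.015. List counts under 4 often moved with 1 array and are not named one by one.

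Replicate numbers recur in the groups, but samples with the same number did not deviate together (r -0.01 to 0.01 over all pairs), so the numbers do not pair the arrays. With the replicate number as a block 478 DEGs were called, 81 higher and 397 lower, and the calls of PSAT1, AQP7 and IGF2 were lost. Signal over background was not analysed here, and 3 arrays a group limit precision.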

Other observations

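A pair of gene families outside the lists was noted after the values were seen. Of 529 olfactory receptor probe sets, genes of odour sensing with little known role in embryos, 69 were higher and 2 lower at an FDR below 0.1, with a median of 0.19, which is 0.06 above the same-level median. After cyclic loess 23 were higher and 5 lower, beside 5.61% and 5.4% of all probe sets. As deposited, 8.38% of all probe sets were higher and 12.9% lower. The share of higher olfactory receptors was thus above that of all probe sets as deposited and below it after cyclic loess.

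Of 363 microRNA precursor probe sets 53 were higher (14.6%) and 8 lower (2.2%), with a median of 0.20, which is 0.11 above the same-level median. After cyclic loess 57 were higher and 7 lower, beside 5.61% and 5.4% of all probe sets. Over all probe sets 8.38% were higher and 12.9% lower. The array reads precursor or host transcripts, so these values do not give the level of mature microRNAs.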
